A study of Mus musculus with 6 samples.

Results

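Sprouty and Spred proteins restrain the RAS to ERK pathway, and their transcripts were measured in mouse lung fibroblasts that were either quiescent or senescent. The 6 genes Spry1, Spry2, Spry4, Spred1, Spred2 and Spred3 were chosen by symbol from a table of 25239 genes, and all 6 passed the filter on low counts that 14065 genes passed. Spry3, the remaining Sprouty gene, was listed with 0 counts in all 6 libraries, where 3 counts would correspond to 0.0253 to 0.0335 CPM (the read count scaled to library size) in a library. In senescent libraries Spry1 was 3.58-fold lower, Spry4 and Spred3 were 2.07-fold and 2.09-fold higher, Spred2 was 1.79-fold higher, and Spry2 and Spred1 were 1.29-fold and 1.13-fold higher. The 2 smallest of these increases depended on how the libraries were scaled.

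Growth factor receptors activate RAS, which activates the kinases RAF, MEK and ERK in turn, and ERK signalling switches on genes that damp the pathway again. Sprouty proteins are such feedback inhibitors. They share a cysteine-rich carboxy-terminal region and an amino-terminal tyrosine that is phosphorylated after growth factor stimulation, and they were first described as regulators of airway branching, where they limit signalling by fibroblast growth factors. Spred proteins share the cysteine-rich region and carry an EVH1 domain, through which Spred1 brings the RAS GTPase-activating protein neurofibromin to the membrane.

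The study compared 3 quiescent with 3 senescent libraries of mouse primary pulmonary fibroblasts, the matrix-producing cells of the lung, without a transgene or deletion named in the labels. Senescence was induced, per the labels' protocols, with RO3306 (an inhibitor of the mitotic kinase Cdk1) for 16 hours, then Nutlin 3a (which releases p53 from Mdm2) for 48 hours, and then 100 nM BI-2536 (an inhibitor of the kinase Plk1) to remove cells that still divided, to a total of 12 days. All cells were grown in DMEM with 10% serum and 5% oxygen. The quiescent samples carry the identical protocol text, and neither their route to quiescence nor the age or strain of the animals is given in the sources used here. Nothing in the labels says that the 3 samples of a group were separate cultures or mice, so the spread between them may be technical and the p-values measure only that spread.

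Gene totals were 93736593 to 109706025 counts per library, of which 18219831 to 21386546 lay outside 3 rows dominated by ribosomal RNA (Rn45s, Lars2 and Mir6236). CPM values below use TMM-adjusted totals with those rows included and therefore look low. Senescent replicate 3 stood further from the other senescent libraries (median absolute log2 difference 0.149 and 0.167) than any other pair within a group (0.0807 to 0.0922). Cdkn1a, the p21 gene, rose from 29.9 ± 0.901 to 65.8 ± 5.25 CPM and Mki67, a marker of division, fell from 52.6 ± 2.13 to 10.4 ± 1.34 (mean ± SD, n = 3 per group). The quiescent libraries thus held Mki67 at the higher level. All 10 fibroblast markers were measured, with a summed level of 4712 to 4849 CPM in quiescent and 4033 to 4468 in senescent libraries. Single fibroblast markers differed more, 4 being called higher and 4 lower, from Thy1 (6.57-fold higher) to Col3a1 (3.85-fold lower). Summed markers of macrophages (4.01 to 4.26 against 10.9 to 14.5 CPM, with Ptprc, Marco, Fcgr1, C1qa and Siglecf under 10 counts in every library), epithelium (1.83 to 1.93 against 6.38 to 8.30, with 7 of 12 markers under 10 counts, Epcam among them) and smooth muscle and pericytes (112 to 132 against 229 to 349) were higher in senescent libraries. Krt19 gave most of the epithelial sum in senescent libraries (0.847 against 6.59 CPM) and Krt18 was also called higher, whereas Hopx was called lower. Among the 12 smooth muscle and pericyte markers, 8 were called higher and 3 lower (Notch3, Abcc9 and Synpo2). Acta2 gave most of that sum (80.8 against 190 CPM). Summed markers of endothelium (21.9 to 23.9 against 13.6 to 15.2, with Pecam1 and Cldn5 under 10 counts) and mesothelium (10.6 to 12.1 against 4.48 to 6.01) were lower. Eng (16.9 against 9.78 CPM) and Tek (3.40 against 0.534) carried the endothelial sum. Of its 7 tested markers 3 were called lower, whereas Cdh5 was called higher (0.234 against 1.16 CPM). The part of these marker shifts in the Sprouty and Spred values was not tested, and in bulk RNA fewer cells of a type cannot be told apart from less RNA per cell.

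The 6 genes lie on 6 chromosomes, so none of them share a locus. Promoter sequences from RefSeq (GRCm38.p6), from 250 bases before to 50 after the annotated start, were found for 5 of the 6 genes, all but Spry4. The 250 bases before the start are shown for Spry1, the gene that fell, and for Spred2 and Spred3, the 2 Spred genes with the larger increases, each 5′ to 3′ on the gene's strand. Capitals mark GGGCGG or its reverse complement CCGCCC, the core of the SP1 box.
Spry1, chr3:37639697-37639946, plus strand: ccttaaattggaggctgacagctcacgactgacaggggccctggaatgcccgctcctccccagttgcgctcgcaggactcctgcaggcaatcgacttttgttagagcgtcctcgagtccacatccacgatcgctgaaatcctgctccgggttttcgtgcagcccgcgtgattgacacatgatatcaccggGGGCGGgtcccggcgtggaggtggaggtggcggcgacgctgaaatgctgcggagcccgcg
Spred2, chr11:19924192-19924441, plus strand: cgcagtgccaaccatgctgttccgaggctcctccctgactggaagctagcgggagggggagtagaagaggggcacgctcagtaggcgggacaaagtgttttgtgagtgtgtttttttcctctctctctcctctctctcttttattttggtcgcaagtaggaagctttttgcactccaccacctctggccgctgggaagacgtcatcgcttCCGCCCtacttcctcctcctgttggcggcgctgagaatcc
Spred3, chr7:29168648-29168897, minus strand: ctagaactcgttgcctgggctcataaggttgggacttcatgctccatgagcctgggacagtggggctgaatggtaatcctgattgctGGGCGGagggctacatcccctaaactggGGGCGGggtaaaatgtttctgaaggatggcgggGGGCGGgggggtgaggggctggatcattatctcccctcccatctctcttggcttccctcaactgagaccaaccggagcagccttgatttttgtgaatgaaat
The SP1 box was present in 4 of the 5 promoters (all but Spry2), with 1 match in Spry1 and in Spred2 and 3 each in Spred1 and Spred3, beside 35.7% of 32851 mouse promoters of that length searched on both strands. The RefSeq window of Spry1, which fell, and those of Spred2 and Spred3, which rose, thus held the same box. That of Spred3 lies wholly within its GENCODE gene model, so its boxes may not be in a promoter. GC content was 64.3% for Spry1, 62.7% for Spry2, 72.3% for Spred1, 57.0% for Spred2 and 55.0% for Spred3, against a median of 52.7% over all promoters. The ETS motif, of factors that ERK phosphorylates, was searched only as the exact letters CCGGAA. These occurred once, in Spry2 from base 34 to base 39 after the start, and in 14.9% of all promoters. Shorter forms such as GGAA were not counted. Neither TGACTCA, the AP-1 motif (5.2% of all promoters), nor TGACGTCA, the cyclic AMP response element (1.79%), occurred in any of the 5. These matches are letters in a window, not measured binding.

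All 6 genes passed edgeR's quasi-likelihood test at an adjusted p under 0.05, 5 as higher and 1 as lower in senescent libraries. Over all 14065 tested genes 74.5% passed, 36.7% as higher and 37.8% as lower, so most genes passed and the count alone does not set these 6 apart. For each of the 6 genes the 3 senescent libraries lay wholly above or wholly below the 3 quiescent ones in CPM, as they did for 78.3% of tested genes. The median log2 fold change was 0.60 over the 6 genes and -0.02 over all tested genes, and the median absolute change was 0.94 against 0.50.

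**Figure D1:**
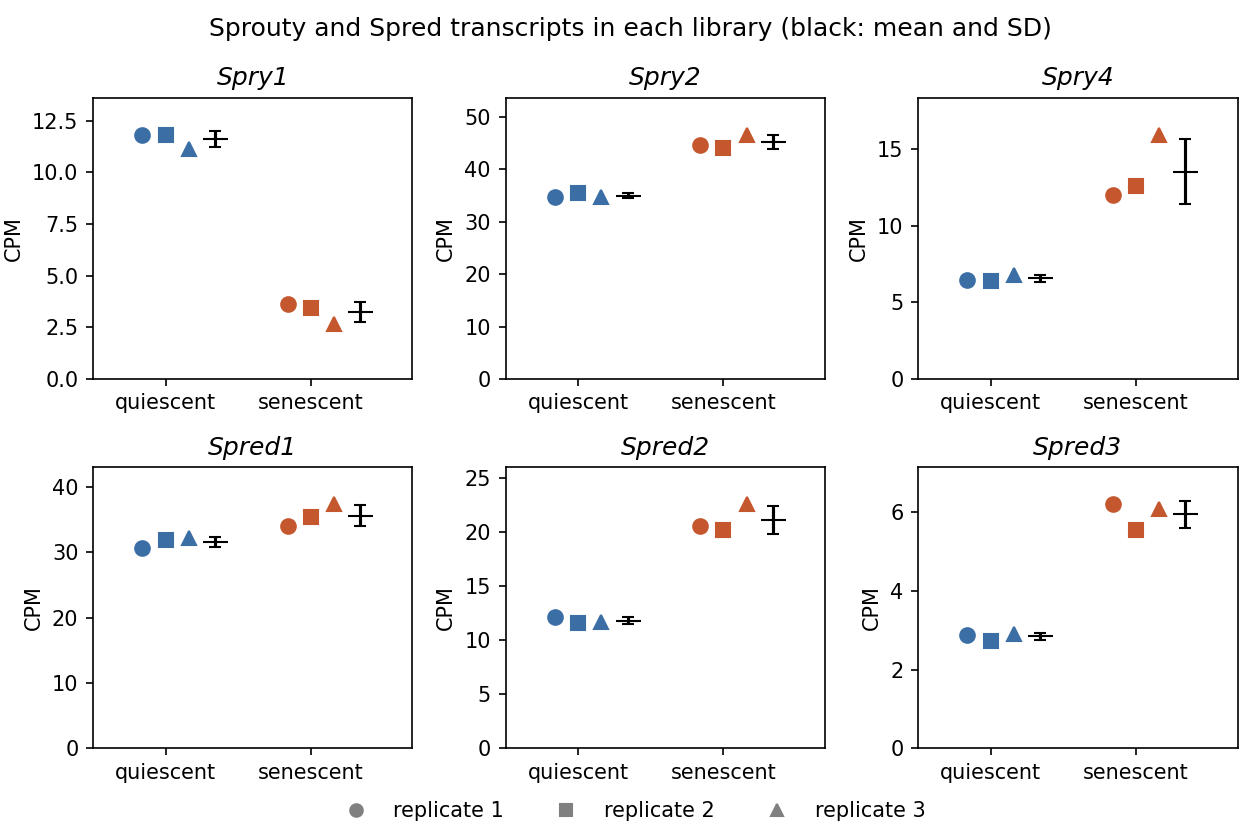
Level of each of the 6 transcripts in CPM (y axes from 0, a separate scale for each gene) in the 3 quiescent and 3 senescent libraries; symbols are replicates, and black marks give the group mean with its SD. Spry1 alone is lower in the senescent libraries (2.68 to 3.61 against 11.2 to 11.8), and senescent replicate 3 has the highest Spry4, at 15.9.

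Spry1 fell. This gene, best known for restraining Ret signalling in the developing kidney (chromosome 3, 37639947 to 37644598, plus strand, GRCm38), had 1257, 1403 and 1182 counts in quiescent replicates 1 to 3 and 360, 309 and 276 in senescent replicates 1 to 3. The corresponding levels were 11.8, 11.8 and 11.2 CPM against 3.61, 3.45 and 2.68 CPM. The groups did not overlap, and senescent replicate 3 was the lowest library. The log2 fold change was -1.84 with a standard error of 0.09 (95% interval -2.05 to -1.63, edgeR adjusted p = 1.3e-08), and 9.98% of tested genes had a larger absolute change. Without senescent replicate 3 the log2 fold change was -1.71. An uncharacterised transcript on the opposite strand, Gm42922, overlaps the Spry1 model in the GENCODE M21 annotation.

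Spry2 was the most abundant of the 6 transcripts per exon length in both states. Its product binds the ubiquitin ligase Cbl and limits fibroblast growth factor signalling in the branching lung (chromosome 14, 105891947 to 105896819, minus strand). It had 3690, 4207 and 3688 quiescent counts and 4465, 3945 and 4801 senescent counts, so that raw counts of the groups overlapped. After scaling, the levels were 34.7, 35.5 and 34.8 against 44.7, 44.1 and 46.7 CPM, without overlap. The log2 fold change was 0.37 with a standard error of 0.05 (95% interval 0.27 to 0.47, edgeR adjusted p = 1.6e-05). With library totals in place of TMM factors it was 0.070, and the call was lost (edgeR adjusted p = 0.446).

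Spry4, on chromosome 18, rose in every senescent library. Like Spry2 it is expressed in fetal lung and induced by fibroblast growth factors. Counts were 687, 757 and 721 in quiescent and 1198, 1128 and 1640 in senescent libraries, or 6.46, 6.38 and 6.80 against 12.0, 12.6 and 15.9 CPM. The increase was thus present in all 3 senescent libraries and was greatest in replicate 3. The log2 fold change was 1.05 with a standard error of 0.10 (95% interval 0.82 to 1.27, edgeR adjusted p = 6.0e-06) and 0.91 without senescent replicate 3. The annotation places 2 short non-coding RNA models, Gm27369 and Gm27804, on the opposite strand within Spry4.

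Spred1 differed least of the 6. It encodes the neurofibromin-binding protein whose loss in people causes Legius syndrome (chromosome 2, 117121374 to 117182279, plus strand). Its 3264, 3787 and 3412 quiescent counts overlapped the 3402, 3170 and 3847 senescent counts, and the scaled levels were 30.7, 31.9 and 32.2 against 34.1, 35.4 and 37.4 CPM. The log2 fold change of 0.17 had a standard error of 0.05 (95% interval 0.06 to 0.28, edgeR adjusted p = 0.0081), and 80.7% of tested genes had a larger absolute change. This direction rested on the scaling: the value was 0.078 with upper quartile factors (edgeR adjusted p = 0.168) and -0.13 with library totals (edgeR adjusted p = 0.165), and without quiescent replicate 1 the adjusted p was 0.049988.

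Library totals moved the median of all tested genes from -0.02 to -0.32, and upper quartile factors moved it to -0.12. With TMM factors, the difference from the median of all genes was -1.82 for Spry1, and Spred1 stood 0.19, Spry2 0.39, Spred2 0.86, Spry4 1.07 and Spred3 1.09 above it. A scaling factor moves every gene and the median alike, so these distances hold under any of the scalings by construction and are no sign of stability.

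**Figure D2:**
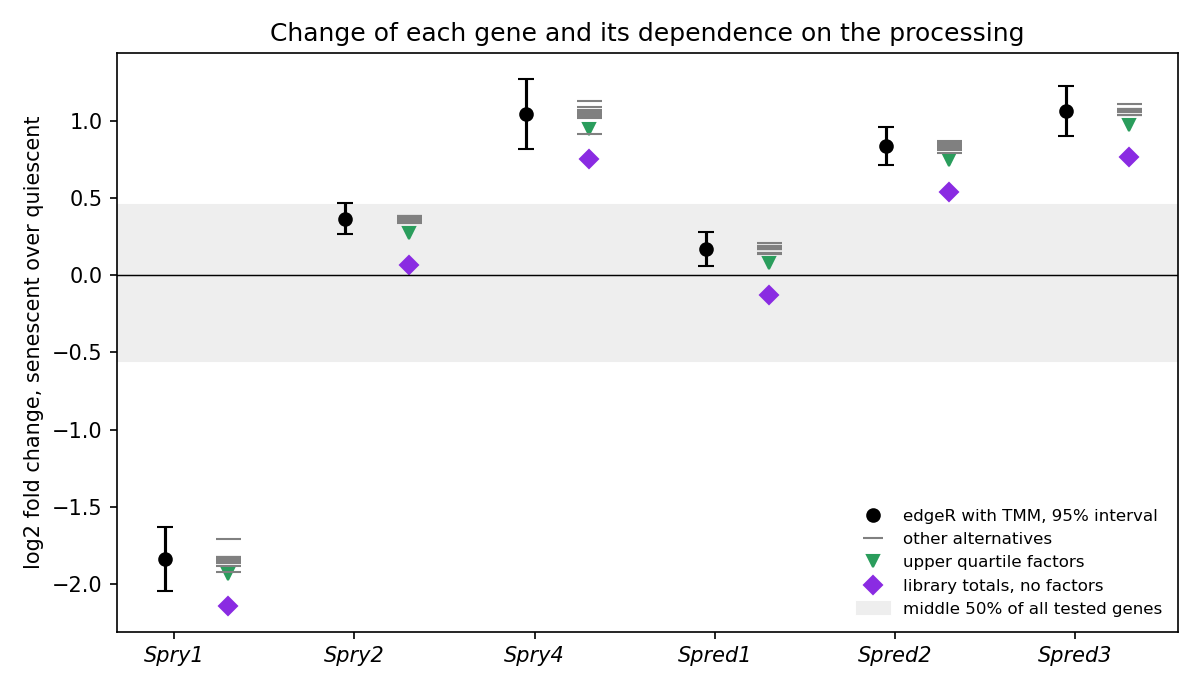
Log2 fold change of each gene, senescent over quiescent (y axis), with black points and 95% intervals from edgeR with TMM factors and, to the right of each, the values under other tools, filters, scalings and with single libraries left out. Grey shading spans the middle 50% of all tested genes, and Spred1 falls to -0.13 with library totals.

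Spred2, which inhibits RAF activation in several cell types (chromosome 11, 19924375 to 20024026, plus strand), rose. It had 1293, 1369 and 1237 quiescent counts and 2053, 1807 and 2322 senescent counts, or 12.2, 11.5 and 11.7 against 20.6, 20.2 and 22.6 CPM. The lowest senescent library was well above the highest quiescent one. The log2 fold change was 0.84 with a standard error of 0.06 (95% interval 0.72 to 0.96, edgeR adjusted p = 9.3e-08).

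Spred3 had the lowest level per exon length of the 6 genes in quiescent libraries and, with Spry4, had one of the larger increases. Its protein lacks the functional Kit-binding region of its relatives (chromosome 7, 29158829 to 29170411, minus strand). Counts were 307, 324 and 307 in quiescent and 619, 497 and 624 in senescent libraries, or 2.89, 2.73 and 2.90 against 6.20, 5.55 and 6.06 CPM, with no overlap. The log2 fold change was 1.07 with a standard error of 0.07 (95% interval 0.91 to 1.23, edgeR adjusted p = 1.2e-07). Spred3 shares 202 exonic bases with Ggn, a gene on the opposite strand, and the use of strand in counting is not given. Ggn had 108, 138 and 101 quiescent and 91, 81 and 143 senescent counts. Its groups thus overlapped, with the lowest counts in senescent replicates 1 and 2 and the highest in senescent replicate 3.

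Senescent replicate 3 differed from the mean of the other senescent libraries by -0.39 on the log2 scale for Spry1, 0.37 for Spry4, 0.15 for Spred2, 0.11 for Spred1, 0.07 for Spry2 and 0.05 for Spred3. This difference had the sign of the gene's change between the groups for 6 of the 6 genes and for 62.4% of all tested genes, and replicate 3 is itself part of that change. Over all tested genes the median absolute difference was 0.15 and the median 0.00070. Without that library all 6 genes still passed the test in the same direction.

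Per exon length the order of the 6 transcripts changed between the states. Dividing CPM by the union of annotated exons, in kilobases, gave quiescent levels of 16.8 ± 0.201 for Spry2, 4.66 ± 0.117 for Spred1, 3.99 ± 0.134 for Spry1, 2.55 ± 0.0707 for Spred2, 1.38 ± 0.0468 for Spry4 and 0.457 ± 0.0149 for Spred3 (CPM per kilobase, mean ± SD, n = 3). No neighbours in this order overlapped between libraries. In senescent libraries the order was Spry2 at 21.6 ± 0.641, Spred1 at 5.25 ± 0.245, Spred2 at 4.57 ± 0.276, Spry4 at 2.84 ± 0.446, Spry1 at 1.12 ± 0.170 and Spred3 at 0.955 ± 0.0549. Spry1 thus went from the third to the fifth place, and it overlapped Spred3, the only neighbours in this order to do so (0.923 to 1.24 against 0.893 to 0.997). With the longest transcript as the length, Spry1 was at 1.17 ± 0.179 and Spred3 at 1.46 ± 0.0841, so the order of these genes in senescent libraries depends on the gene model.

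**Figure D3:**
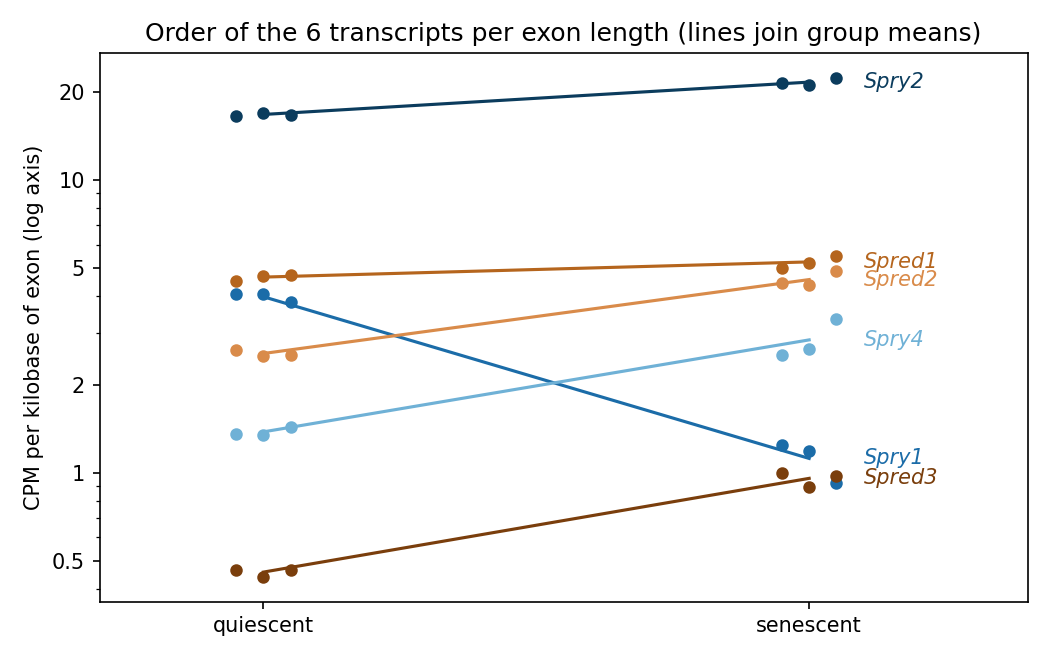
Levels of the 6 transcripts in CPM per kilobase of exon (log y axis) in quiescent and senescent libraries; points are libraries and lines join group means. The Spry1 line, from 3.99 to 1.12, crosses those of Spred2 and Spry4, while Spry2 stays highest.

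As a share of the summed level of the 6 transcripts, Spry2 made up 56.3% ± 0.269 in quiescent and 59.5% ± 0.632 in senescent libraries. The Spry1 share went from 13.4% ± 0.410 to 3.09% ± 0.573 and that of Spry4 from 4.62% ± 0.181 to 7.79% ± 0.913. The Spred2 share went from 8.57% ± 0.282 to 12.6% ± 0.269, that of Spred3 from 1.53% ± 0.0608 to 2.63% ± 0.148, and that of Spred1 from 15.6% ± 0.372 to 14.4% ± 0.328. The groups did not overlap for any of the 6 shares. The summed level of the 3 Sprouty genes was 22.1 ± 0.245 CPM per kilobase in quiescent and 25.6 ± 0.903 in senescent libraries. That of the 3 Spred genes was 7.67 ± 0.0605 and 10.8 ± 0.515. Both sums rest on TMM factors, which were 1.06 to 1.14 in quiescent and 0.845 to 0.938 in senescent libraries. Library totals multiply each library's sum by its factor. The Sprouty sums of the groups then overlapped, so their rise depends on the scaling, while the Spred sums stayed higher in senescent libraries. With library totals the log2 fold change was 0.070 for Spry2, 0.75 for Spry4 and -2.14 for Spry1. The ratio of the Sprouty to the Spred sum was 2.84 to 2.93 in quiescent and 2.34 to 2.41 in senescent libraries. Shares and sums are descriptions without a test, and they depend on the division by length. Without it Spry2 made up 35.2% in quiescent and 36.3% in senescent libraries, Spred1 31.8% and 28.6%, and Spred3 2.86% and 4.77%.

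For each gene the most similar profiles were sought among 10184 others, by the root mean square difference of log2 CPM centred over the 6 libraries. The nearest to Spry1 were Nfib, a transcription factor gene of lung development (0.03), and Dpysl2 (0.03). Those nearest to Spry4 were Mapkapk2, which encodes a kinase downstream of p38 (0.04), and Pip4k2c (0.04). Spred2 was nearest to Serp1 (0.02) and Smyd5 (0.03), and Spred3 to Nr1d1, the gene of a circadian repressor (0.04), and Micall2 (0.04). Spry2 was nearest to Phf5a and Mast4 (both 0.01), and Spred1 to Slc52a2 (0.01) and Krr1 (0.02). Since the groups differ for most genes, this measure mainly finds genes with a change of like size between the groups, such as Nfib with a log2 fold change of -1.85.

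The surrounding pathway was described with 10 lists of 193 genes other than Sprouty and Spred, of which 182 were tested. Of these 104 rose and 53 fell, 57.1% and 29.1% beside the 36.7% and 37.8% over all genes. With library totals 78 rose and 71 fell, 42.9% and 39% beside 21% and 52.9% over all genes. The counts of each list below are given with both scalings and are to be read against these shares of all genes.

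Ligand and receptor genes upstream included calls in both directions. Of 26 growth factor ligand genes 14 rose and 9 fell (14 and 11 with library totals). Hbegf, for an EGF receptor ligand, rose from 0.480, 0.717 and 0.698 to 23.1, 22.0 and 26.8 CPM, and Vegfa rose by 3.24 on the log2 scale, while Pdgfd fell by 2.25 and Fgf18 by 2.11. Of 22 receptor tyrosine kinase genes 11 rose and 8 fell, 50% and 36.4%, and with library totals 8 rose and 8 fell, 36.4% each. Fgfr1, a receptor that Sprouty proteins restrain, rose from 74.5, 74.0 and 81.3 to 164, 166 and 182 CPM, and Pdgfra fell by 1.45 on the log2 scale.

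The relay from receptor to ERK, which Sprouty and Spred proteins block, also included calls in both directions. Of 17 adaptor and exchange factor genes 9 rose and 4 fell (6 and 6 with library totals), with Gab1, for a docking protein, at a log2 fold change of -1.76. Of 8 genes of RAS proteins 4 rose and 3 fell (1 and 4 with library totals). Mras fell by 1.64, and the increase of Hras (0.48) was lost with library totals (edgeR adjusted p = 0.0537). Of 15 RAF, MEK and ERK kinase and scaffold genes 10 rose and 3 fell (5 and 5 with library totals), with Map2k1, the MEK1 gene, at 1.67 and the scaffold gene Ksr1 at -1.51.

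Among genes of proteins that act with Sprouty and Spred, 12 of 24 rose and 9 fell, 50% and 37.5%, and with library totals 9 rose and 12 fell, 37.5% and 50%. Egln3, for a prolyl hydroxylase reported to act on Spry2, went from 0.706, 0.675 and 0.708 to 10.9, 11.0 and 10.7 CPM. Nedd4, for a ubiquitin ligase that targets Spry2, fell by 0.95 on the log2 scale, and Cav1, the caveolin-1 gene, rose by 1.21. Cbl had a log2 fold change of 0.49 (edgeR adjusted p = 6.1e-05), which did not pass with library totals (0.19, edgeR adjusted p = 0.0870). Of 9 RAS GTPase-activating protein genes 6 rose and 2 fell (4 and 3 with library totals), with Rasa1 at 1.59 and Rasa3 at -1.39. Nf1, which encodes the neurofibromin that Spred1 recruits, had 20.4, 21.1 and 19.7 CPM in quiescent and 21.3, 19.3 and 22.0 in senescent libraries. Its log2 fold change was 0.03 (95% interval -0.09 to 0.16, edgeR adjusted p = 0.628), and the groups overlapped, whereas with library totals it was called lower (-0.26, edgeR adjusted p = 0.0138). Cbl and Nf1 were singled out for their known link to Spry2 and Spred1 after their values were seen.

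Other feedback inhibitors of receptors and ERK included genes with larger increases than the Sprouty and Spred genes, whose log2 fold changes ran from -1.84 to 1.07. Of 23 such genes 11 rose and 8 fell (10 and 11 with library totals), from the ERK phosphatase gene Dusp5 at 4.84 and the EGF receptor inhibitor gene Errfi1 at 3.07 to Lrig3 at -0.85 among named genes. Of 26 ERK output transcripts, genes commonly induced by ERK signalling, 21 rose and 4 fell (19 and 5 with library totals), with a median log2 fold change of 1.55. Lif, an interleukin 6 family cytokine gene, rose from 3.76, 4.35 and 4.15 to 124, 127 and 186 CPM, whereas the ETS factor gene Etv1 fell from 5.96, 6.69 and 5.86 to 1.41, 1.32 and 1.44 CPM. Senescent replicate 3 lay above the remaining senescent libraries by a median of 0.29 (log2) over this list. Of 12 protein tyrosine phosphatase genes 6 rose and 3 fell (2 and 6 with library totals), with Ptprk at 1.69 and Ptprs at -0.56.

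**Figure D4:**
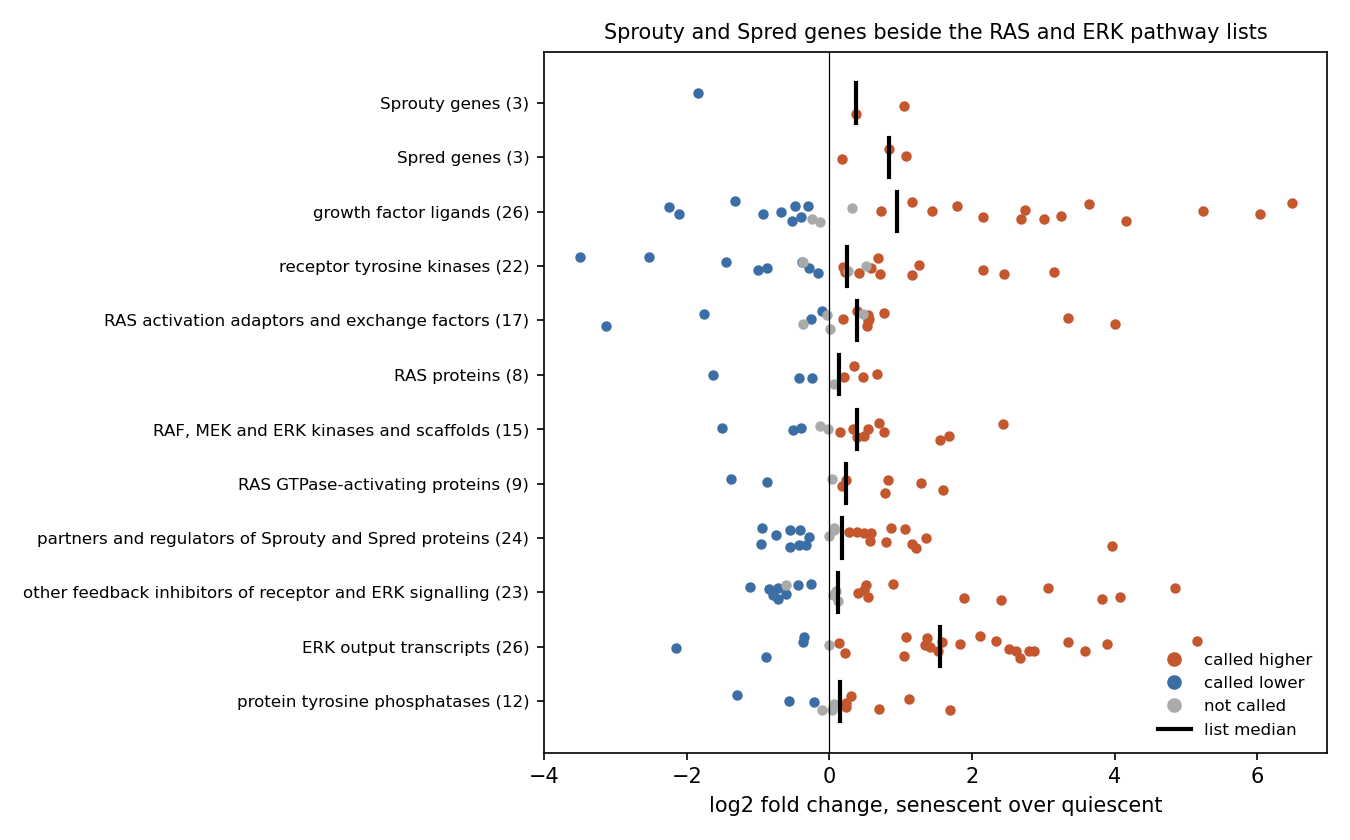
Log2 fold change (x axis) of every tested gene in the Sprouty and Spred lists and the 10 pathway lists, with the number tested in parentheses; colour gives the edgeR call, black bars are list medians, and vertical scatter within a list has no meaning. The median of the ERK output transcripts is 1.55, and Spry1, at -1.84, lies apart from the other Sprouty genes.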

How the data were processed

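RNA of 6 fibroblast libraries was depleted of ribosomal RNA and sequenced as directional paired reads of 100 bp, per the labels' protocols. Raw counts by gene symbol were deposited by the authors as whole numbers whose totals differ between libraries. The submitters' processing notes name the build mm10, edgeR 3.32.1 and limma 3.46.0. The sources used here do not name the aligner or the counter, or its treatment of strand and multiply mapping reads; thus counts where gene models overlap are uncertain. A second deposited table, of counts per repeat name, was not used.

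The main test was edgeR's robust quasi-likelihood F test (edgeR 4.0.16, R 4.3.3) of senescent against quiescent, after filterByExpr at a minimum count of 10 and TMM scaling. P-values were adjusted by the Benjamini-Hochberg method (14065 tested genes), and 0.05 was the threshold. Each standard error is the absolute log2 fold change over the root of F. CPM was taken on TMM-adjusted totals, and log2 CPM used a prior count of 2. The fit was tested on simulated data, in which, unlike here, few genes changed and all genes shared a common dispersion. Intervals rest on 3 libraries per group, PCR reads carry no molecular identifiers, and the limit of 3 counts for a row at 0 covers counting error only. Replicates within a group differed by more than sampling noise (chi-square per degree of freedom 4.10 to 36.0). This measure used raw counts with the ribosomal rows included. It therefore also takes in differences in their share, which was 79.8% to 82.8% over the libraries.

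Gene models came from GENCODE M21 (GRCm38, the assembly that mm10 names), matched by symbol for 6 of 6 genes. Their starts can differ from the RefSeq starts of the promoters. The Spred3 bases shown lie wholly within its GENCODE model, which runs to 29170411 on the minus strand. The last of the Spred2 bases shown also lie within its model, which starts at 19924375. No protein sequences were used. Genes named from the pathway lists were among the 3 highest and 3 lowest that passed in each list at a mean log2 CPM of at least 0, except where stated. For each of the 6 genes the 2 nearest profiles were named, with unnamed or predicted symbols left out. The members and lists were chosen with earlier results of these data known, and no list was given a test. Alternatives were DESeq2 1.42.0, limma-voom (limma 3.58.1), other scalings and filters, the 3 ribosomal rows left out, the replicate number as a block, a test against 1.5-fold (glmTreat), other gene lengths, and each library left out in turn. A result on 1 gene of the pathway lists is not reported here.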

Additional observations from a re-analysis of the deposited data

How the results depend on the processing

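With library totals, 2952 genes were higher and 7435 lower, against 5158 and 5316 with TMM factors, and 3 of the Sprouty and Spred genes were higher. Spry2 then had a log2 fold change of 0.070 and Spred1 of -0.13, neither past the threshold, and Slc52a2 (-0.12) and Krr1 (-0.15), which did not pass in the main test, also changed sign. Upper quartile factors gave 0.078 for Spred1, below the threshold. Nf1 (0.03) changed sign with upper quartile factors (-0.062), library totals (-0.26) and without senescent replicate 3, over -0.0025 to 0.086 with single libraries left out. The construction of these scalings sets the shifts, since they move the median of all genes. Tested against a 1.5-fold change, 2138 genes were higher and 2460 lower, with 66 and 23 of the pathway list genes; 3 of the Sprouty and Spred genes were higher, Spry2 (0.37) and Spred1 (0.17) no longer passing. Spry1, Spry4, Spred2 and Spred3 kept their direction and call in all 16 alternatives, over ranges of -2.14 to -1.71, 0.75 to 1.13, 0.54 to 0.87 and 0.77 to 1.11. With single libraries left out, Spry2 ranged from 0.35 to 0.39 and Spred1 from 0.14 to 0.21, all past the threshold.

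The replicate numbers are shared by the groups, and deviations of same-numbered libraries correlated at 0.05, -0.01 and 0.06. With 3 libraries per group such values cannot decide whether same-numbered libraries share a culture or batch, and the labels do not pair them. The replicate block gave 5124 higher and 5281 lower genes and changed no call of the 6. Quiescent replicates 1 and 3 correlated best with the senescent library of their own number (0.05 and 0.06), and quiescent replicate 2 with senescent replicate 1 (0.06). Depth did not limit these genes, the lowest of which had 276 counts in a library, but 3 libraries per group limit the precision of every value.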
